A study of Mus musculus with 6 samples.

Results

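The enzymes and proteins that write, erase and read DNA methylation were described in cardiac fibroblasts of mice carrying floxed *Tet3* alleles (Tet3 f/f). The genes were taken by symbol: the erasers *Tet1*, *Tet2* and *Tet3*, the methyltransferases *Dnmt1*, *Dnmt3a* and *Dnmt3b*, the maintenance factor *Uhrf1*, and the DNA glycosylases *Tdg* and *Mbd4*. All 9 of them were found among the 22063 genes of the table, once each. RNA-seq was performed on 3 libraries from cells that received an adenovirus coding for EGFP (GFP, labelled as control genotype) and on 3 libraries from cells that received an adenovirus coding for Cre recombinase and EGFP (CRE, labelled as *Tet3* knockout). The cells of both groups were Tet3 f/f and were given TGF-β, the growth factor best known for driving fibroblasts to become contractile myofibroblasts, so an effect of TGF-β cannot be read from these libraries. Per the study's methods the cells were isolated from Tet3 f/f mice and both viruses expressed their protein from the CMV promoter, which is not restricted to fibroblasts. The study calls its replicates biological in general terms, but the age of the animals, and whether the libraries of a group came from separate animals or cultures, is not given in the sources used here. The p-values therefore measure only the spread between these libraries. The question asked was whether the rest of the methylation machinery differed when *Tet3* had been targeted.

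DNA methylation in mammals sits mostly on the cytosine of CpG dinucleotides. DNMT3A and DNMT3B place new methyl groups, whereas DNMT1, brought to newly replicated DNA by UHRF1, copies existing ones onto the daughter strand. TET enzymes oxidise 5-methylcytosine stepwise in a reaction that consumes 2-oxoglutarate, and TDG removes the most oxidised products so that base excision repair can restore cytosine. MBD4 binds methylated CpG and removes the thymine or uracil left by deamination. Fibroblasts express all 3 kinds of activity.

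The 250 bases upstream of the RefSeq start (GRCm38.p6) are shown for the genes whose counts fell, *Tet2*, *Tet3* and *Uhrf1* (the first of its 2 starts), because the cytosine of CpG is what these enzymes act on; each CpG is in capitals. Methylation of these windows was not analysed here. They lie at chr3:133544391-133544640 on the minus strand, chr6:83441679-83441928 on the minus strand and chr17:56303087-56303336 on the plus strand. The windows of *Tet2* and *Tet3* lie inside the gene as annotated by GENCODE M21 but outside its exons.
Tet2: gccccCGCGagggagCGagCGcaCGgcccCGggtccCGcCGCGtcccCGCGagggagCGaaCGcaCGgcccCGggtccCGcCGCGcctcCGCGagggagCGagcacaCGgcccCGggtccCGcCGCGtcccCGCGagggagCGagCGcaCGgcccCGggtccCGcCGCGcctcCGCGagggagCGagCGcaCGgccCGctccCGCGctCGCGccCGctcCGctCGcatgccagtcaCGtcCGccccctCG
Tet3: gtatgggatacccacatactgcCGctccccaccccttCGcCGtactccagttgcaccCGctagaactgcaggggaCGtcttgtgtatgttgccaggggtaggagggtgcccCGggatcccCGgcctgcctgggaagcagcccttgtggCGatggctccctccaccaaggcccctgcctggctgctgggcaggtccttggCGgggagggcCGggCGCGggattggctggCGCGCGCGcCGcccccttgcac
Uhrf1: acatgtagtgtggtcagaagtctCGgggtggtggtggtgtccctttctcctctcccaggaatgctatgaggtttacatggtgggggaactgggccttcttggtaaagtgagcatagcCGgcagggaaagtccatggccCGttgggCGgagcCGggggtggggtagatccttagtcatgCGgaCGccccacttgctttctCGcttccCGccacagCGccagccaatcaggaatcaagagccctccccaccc
The *Tet2* window held 51 CpG, the *Tet3* window 17 and the *Uhrf1* window shown 10, against a median of 6 over 32851 such windows of 27025 genes (5th to 95th percentile 0 to 31). Fewer CpG than in the *Tet2* window were found in 99.9% of windows, and the corresponding shares were 76.5% for *Tet3* and 62.2% for the *Uhrf1* window shown. The window of the second *Uhrf1* start held 30 CpG, and 94.1% of windows held fewer. All 9 genes matched, with 14 windows in total, and these ranged from 2 CpG (1 of the 3 starts of *Dnmt1*) to the 51 of *Tet2*. Letters of the E2F type, TTTCCCGC or TTTGGCGC read on both strands, were found in 0 of the 14 windows, and in 0.895% and 0.417% of all windows. The letters CCAAT, read on both strands, were found in 7 of the 14 windows, belonging to *Dnmt1*, *Mbd4*, *Tdg*, *Tet3* and *Uhrf1*, and in 33.8% of all windows.

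The libraries held between 17002126 and 20343590 gene counts. CPM denotes counts scaled to a common library size by the trimmed mean of M-values (TMM), and a count of 0 allowed up to between 0.156 and 0.187 CPM (3 counts, counting error only). Of 12862 genes tested, 3277 were higher and 3306 lower in CRE (edgeR's quasi-likelihood test, Benjamini-Hochberg adjusted p under 0.05). This even split belongs to the TMM scale: with no TMM factor, that is by library size alone, 5529 were higher and 2083 lower. The median over all genes tested then moved from 0.005 to 0.167 on the log2 scale, and it was 0.135 on FPKM. Markers of fibroblasts were high in every library, with 8 markers summing to between 29000 and 30100 CPM in GFP and between 17900 and 19300 in CRE. Of these 8, 7 were lower in CRE. Markers listed for other cell types were mostly lower as well: 6 endothelial markers summed to 341 to 383 CPM in GFP against 169 to 192 in CRE (5 of 6 lower), 5 smooth muscle markers to 1280 to 1500 against 526 to 605 (4 of 5 lower), and 6 macrophage markers to 32.5 to 35.5 against 20.0 to 23.8 (2 of 4 tested lower). Most of the smooth muscle sum was *Acta2*, at 1190 to 1400 CPM in GFP against 459 to 535 in CRE, which is also a marker of myofibroblasts, so this sum does not single out another cell type. The cardiomyocyte markers *Myh6* and *Myl7* were at 0 in all libraries, and the 6 cardiomyocyte markers summed to at most 0.698 CPM in any library. The part of these marker differences in the results below was not tested, and in bulk RNA fewer cells of a type and less RNA per cell cannot be told apart.

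Levels of different genes were compared on FPKM, the authors' value per transcript length. In GFP cells *Tdg* was the most abundant of the 9, at 22.0 FPKM on average, followed by *Dnmt1* (10.1), *Tet3* (6.0), *Dnmt3a* (4.39), *Uhrf1* (3.26), *Tet2* (2.26), *Mbd4* (1.46), *Dnmt3b* (0.225) and *Tet1* (0.184). Only *Dnmt3b* and *Tet1* at the bottom overlapped with their neighbour in this order, with 0.192 to 0.245 FPKM for *Dnmt3b* and 0.111 to 0.326 for *Tet1*. In CRE cells *Tet3* fell in this order from the third to the fifth place: its 3 libraries, at 3.42 to 3.60 FPKM, lay below all 3 of *Dnmt3a* (4.85 to 5.44) and of *Uhrf1* (3.95 to 4.16). On CPM per kb of the longest transcript, a scale added after seeing the data, *Tet3* took the fourth place in CRE: its libraries, at 3.08 to 3.30, overlapped those of *Dnmt3a* (3.19 to 3.63) and lay above those of *Uhrf1* (1.84 to 2.30). In both groups *Dnmt1* and *Dnmt3a* made up most of the methyltransferase transcripts, and *Tet3* and *Tet2* most of the eraser transcripts.

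Among the erasers, *Tet3* and *Tet2* fell and *Tet1* did not pass the test. *Tet3*, the targeted gene (ENSMUSG00000034832, chr6:83362373-83459084, minus strand, GRCm38), gave 64.9, 54.4 and 52.0 CPM in GFP (replicates 1, 2 and 3, in that order here and below), against 34.5, 35.9 and 33.6 CPM in CRE. Every CRE library lay below every GFP library, and the group mean went from 57.1 ± 6.88 to 34.7 ± 1.17 CPM (SD, n = 3), that is to 60.8%. The log2 fold change was -0.72 (SE 0.08, 95% confidence interval -0.90 to -0.54, edgeR's quasi-likelihood test with Benjamini-Hochberg adjusted p = 5.36e-05). The count covers the whole gene and does not separate the floxed exons from the rest, so it gives no share of deleted alleles.

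*Tet2* (chr3:133463679-133545139) gave 20.1, 22.0 and 23.4 CPM in GFP and 17.0, 18.7 and 16.2 CPM in CRE. The lowest GFP library lay above the highest CRE library, and the log2 fold change was -0.34 (SE 0.09, 95% confidence interval -0.53 to -0.15, edgeR adjusted p = 0.00795). This call depended on the scale: by library size alone the log2 fold change was -0.18 (adjusted p = 0.106), and on log2(FPKM + 1) it was -0.12 (limma adjusted p = 0.261), with FPKM of 2.06 to 2.43 in GFP overlapping 1.87 to 2.17 in CRE. *Tet1* (chr10:62804570-62908996) was scarce, with 28, 30 and 48 reads in GFP against 12, 22 and 35 in CRE, or 1.98 ± 0.45 against 1.24 ± 0.602 CPM (SD, n = 3). Its groups overlapped, the log2 fold change was -0.68 with a 95% confidence interval of -1.46 to 0.10, and the edgeR adjusted p was 0.133. Without CRE replicate 3 the value was -1.09 (adjusted p = 0.0369), and on log2(FPKM + 1) it was 0.22 (limma adjusted p = 0.0826), so neither a size nor a direction could be set for *Tet1*.

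**Figure D1:**
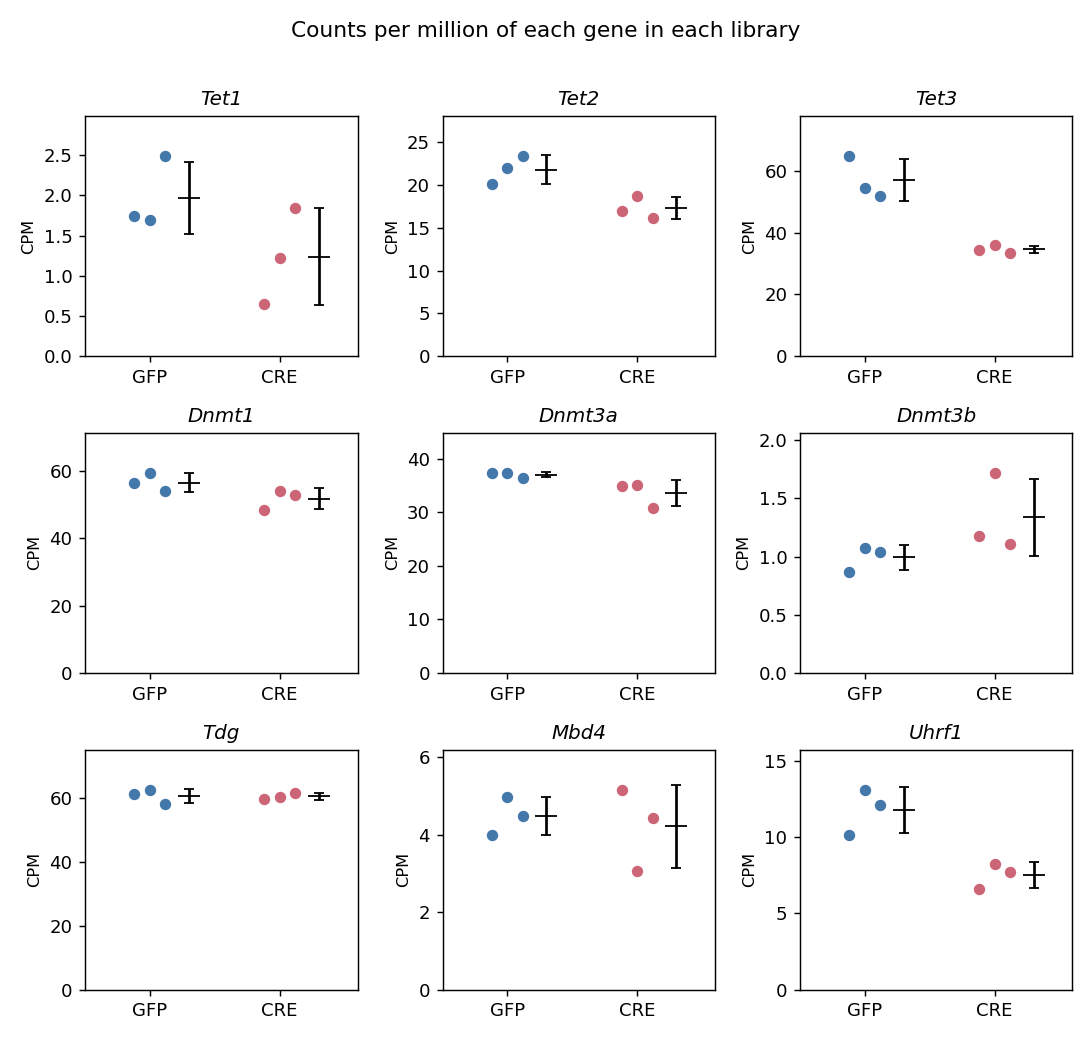
Normalized read count (CPM, TMM scaled) of each of the 9 genes in GFP (blue) and CRE (red) libraries, 1 point a library; the bar and line give mean ± SD (n = 3), and each panel has its own vertical axis starting at 0. The CRE points of *Tet3*, *Tet2*, *Dnmt3a* and *Uhrf1* lie below all GFP points, those of *Dnmt3b* lie above them, and the groups of the other 4 genes overlap.

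With *Tet3* lower, the make-up of the TET transcripts differed between the groups. *Tet3* made up 75.3%, 71.2% and 66.4% of the summed TET FPKM in GFP, against 58.7%, 58.6% and 61.3% in CRE, so that it remained the main TET transcript in every library. The mean share was 71.0% ± 4.49 in GFP and 59.6% ± 1.49 in CRE, a difference of -11.4 percentage points (SD, n = 3; exact two-sided permutation p = 0.1, the smallest that 3 against 3 libraries allow). The share of *Tet2* was 26.8% ± 3.18 in GFP and 34.1% ± 1.18 in CRE without overlap, although *Tet2* itself was no higher in CRE on any scale used. The difference in the *Tet3* share was smaller on counts per kb of the longest transcript, at -5.58 percentage points, and on plain counts, at -5.18, and groups did not overlap on either. The share of *Tet1* was 2.20% against 6.36% on FPKM but 1.78% against 1.68%, with overlap, on counts per kb.

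The sum of the 3 methyltransferases relative to the sum of the 3 erasers was higher in CRE. The ratio of DNMT to TET FPKM was 1.67, 1.81 and 1.74 in GFP and 2.59, 2.72 and 2.80 in CRE, or 1.74 ± 0.0745 against 2.70 ± 0.103 (SD, n = 3), a 1.55-fold difference (exact permutation p = 0.1, the smallest possible). The summed TET FPKM was 8.44 ± 0.343 in GFP and 5.85 ± 0.273 in CRE, while the summed DNMT FPKM was 14.7 ± 0.421 and 15.8 ± 0.786. *Tet3*, the targeted gene, is part of the TET sum and went from 6.0 FPKM on average in GFP to 3.48 in CRE. A higher ratio over this sum is therefore not a result separate from the fall of *Tet3*. The higher DNMT sum is a value of the FPKM scale: on counts scaled by TMM the log2 fold changes of *Dnmt1* and *Dnmt3a*, its main parts, were -0.13 and -0.14, neither of them called. On counts per kb of the longest transcript the ratio was 1.77 against 2.45. *Tdg* relative to the TET sum, the pairing of the glycosylase step of active demethylation with the oxidation before it, was 2.62 ± 0.263 in GFP and 4.30 ± 0.251 in CRE on FPKM. On counts per kb of the longest transcript it was 2.24 against 3.36, and this ratio too is taken over a sum that contains *Tet3*.

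**Figure D2:**
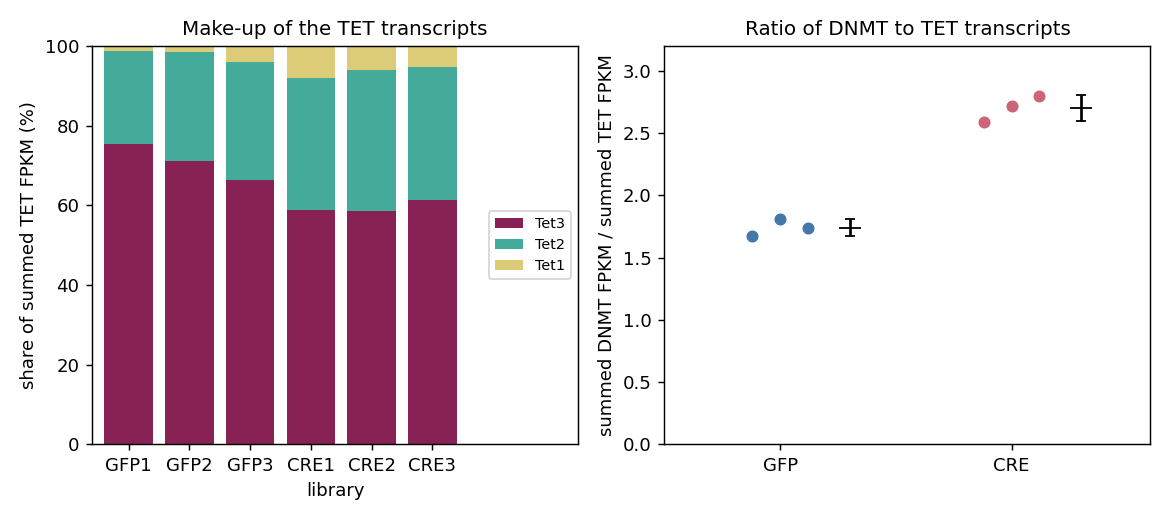
Left, share of *Tet3*, *Tet2* and *Tet1* in the summed TET FPKM of each library (percent). Right, summed FPKM of *Dnmt1*, *Dnmt3a* and *Dnmt3b* divided by that of the 3 TET genes, 1 point a library, with mean ± SD (n = 3): GFP libraries lie between 1.67 and 1.81 and CRE libraries between 2.59 and 2.80.

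None of the 3 methyltransferases passed the test. *Dnmt1* (chr9:20907209-20959888), the maintenance enzyme, gave 56.4, 59.5 and 54.0 CPM in GFP and 48.4, 54.2 and 52.9 CPM in CRE. The ranges overlapped narrowly, the mean in CRE came to 91.5% of that in GFP, and the log2 fold change of -0.13 had a 95% confidence interval of -0.26 to 0.01 (edgeR adjusted p = 0.101). *Dnmt3a* (chr12:3806007-3914443), the more abundant of the de novo enzymes here, gave 37.4, 37.4 and 36.5 CPM in GFP and 35.0, 35.1 and 30.9 CPM in CRE. Its groups did not overlap, yet the log2 fold change of -0.14 (SE 0.06) missed the threshold with an edgeR adjusted p of 0.0941. On FPKM the direction of *Dnmt3a* was the opposite, with 4.27 to 4.53 in GFP and 4.85 to 5.44 in CRE, again without overlap (log2 fold change 0.20 on log2(FPKM + 1), limma adjusted p = 0.0544). By library size alone neither gene moved by more than 0.03 on the log2 scale. *Dnmt3b* (chr2:153649450-153687730) was scarce, with 14, 19 and 20 reads in GFP and 22, 31 and 21 in CRE. It was the only one of the 9 genes with a log2 fold change above 0.00 on counts scaled by TMM, at 0.42, but its 95% confidence interval ran from -0.22 to 1.05 (edgeR adjusted p = 0.249).

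*Uhrf1* (chr17:56303321-56323486), which recognises hemimethylated CpG and recruits DNMT1, fell on counts. It gave 10.1, 13.1 and 12.1 CPM in GFP and 6.61, 8.25 and 7.71 CPM in CRE, and every CRE library lay below every GFP library. On average CRE held 63.8% of the GFP level, beside 60.8% for *Tet3*, and the log2 fold change was -0.65 (SE 0.13, 95% confidence interval -0.94 to -0.37, edgeR adjusted p = 0.00186). On the authors' FPKM the order of the groups was turned round without overlap: 2.76, 3.74 and 3.27 in GFP and 3.95, 4.16 and 4.14 in CRE, a log2 fold change of 0.26 on log2(FPKM + 1) that missed the threshold (limma adjusted p = 0.0538). *Uhrf1* relative to its partner *Dnmt1* followed the same split, at 0.324 against 0.397 on FPKM and 0.341 against 0.237 on counts per kb of the longest transcript. A direction for *Uhrf1* therefore holds for counts only.

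The glycosylases did not pass the test. *Tdg* (chr10:82629828-82650799) gave 61.1, 62.6 and 58.2 CPM in GFP and 59.6, 60.4 and 61.7 CPM in CRE. The ranges overlapped and the log2 fold change was 0.00, with the narrowest interval of the 9 genes, -0.11 to 0.11 (edgeR adjusted p = 0.977). *Tdg* was called higher by library size alone, at 0.16 (edgeR adjusted p = 0.0161), and on log2(FPKM + 1), at 0.18 (limma adjusted p = 0.0318), values close to the shift of all genes under these scales. *Mbd4* (chr6:115840697-115853371) gave between 55 and 96 reads, 4.47 ± 0.491 CPM in GFP and 4.21 ± 1.07 in CRE (SD, n = 3), with overlap. Its log2 fold change was -0.09 with a 95% confidence interval of -0.53 to 0.36 (edgeR adjusted p = 0.746), which leaves room for a change in either direction. Exons of 4 of the 9 genes share bases with a gene on the other strand: *Tdg* 367 with *Glt8d2*, *Mbd4* 264 with *Gm44206*, *Dnmt3a* 133 with *Dnmt3aos* and *Tet2* 43 with *Gm42567*. Whether counting used the strand is not stated, so reads in these stretches cannot be assigned with certainty.

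Over the 9 genes, 0 were higher, 3 were lower and 6 were not called, and the median log2 fold change was -0.14 against 0.005 over all genes tested. By library size alone 1 was higher (*Tdg*) and 2 were lower (*Tet3* and *Uhrf1*), with a median of 0.02, and on log2(FPKM + 1) 1 was higher (*Tdg*) and 1 lower (*Tet3*), with a median of 0.14. Among all 12862 genes 51.2% were called, 25.7% lower and 25.5% higher, so 3 of 9 called lower is near the background of lower genes. The CPM of the groups did not overlap for 5 of the 9 genes, against 59.6% of all genes. In size, the fall of *Tet3* by 0.72 on the log2 scale lay beside that of *Uhrf1* by 0.65, and the 2 intervals overlapped widely.

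**Figure D3:**
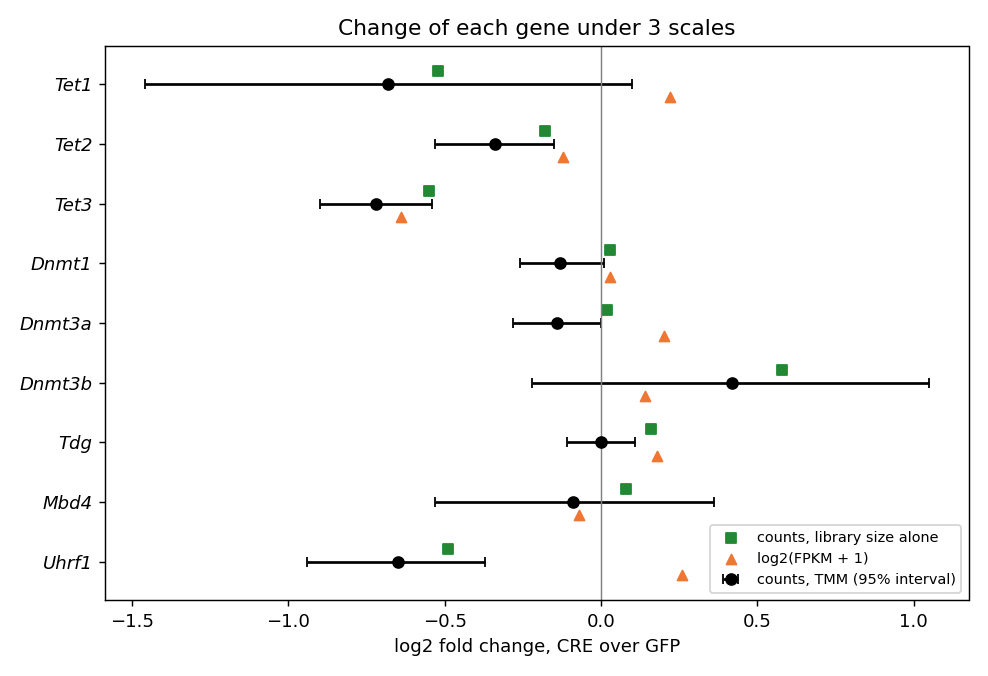
Log2 fold change (CRE over GFP) of each gene on 3 scales: counts scaled by TMM (circles, with the 95% confidence interval of edgeR's test), counts by library size alone (squares) and limma on log2(FPKM + 1) (triangles). *Tet3* lies below 0 on all 3 scales, as does *Tet2*, while *Uhrf1* lies at -0.65 and -0.49 on counts and at 0.26 on FPKM.

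The difference between counts and FPKM was followed by dividing the count by the FPKM and by the library total, which gives the transcript length, in kb, that the FPKM implies. Over 12819 genes the CRE to GFP ratio of this length had a median of 1 and lay between 0.93 and 1.08 for the 5th to 95th percentile. *Dnmt1* and *Tet2* followed that pattern, with 5.32 and 5.33 kb for *Dnmt1* and 9.15 kb in both groups for *Tet2*, whose longest annotated transcript has 9179 bases. For *Uhrf1* the implied length was 3.47, 3.32 and 3.50 kb in GFP and 1.76, 2.11 and 1.97 kb in CRE, within an annotation of 5 coding transcripts between 529 and 3586 bases long. For *Dnmt3a*, with 13 coding transcripts between 467 and 9685 bases, it was 7.98 kb in GFP and 6.86 kb in CRE. For *Tet1* it was 14.4, 14.4 and 7.24 kb in GFP and 1.45, 3.57 and 6.74 kb in CRE, where the longest transcript has 14369 bases. *Tet3* moved the other way, from 8.98 to 10.5 kb, beside a longest transcript of 10904 bases. Reads along the transcripts were not analysed here, and whether the transcripts or their assignment differed was not tested.

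**Figure D4:**
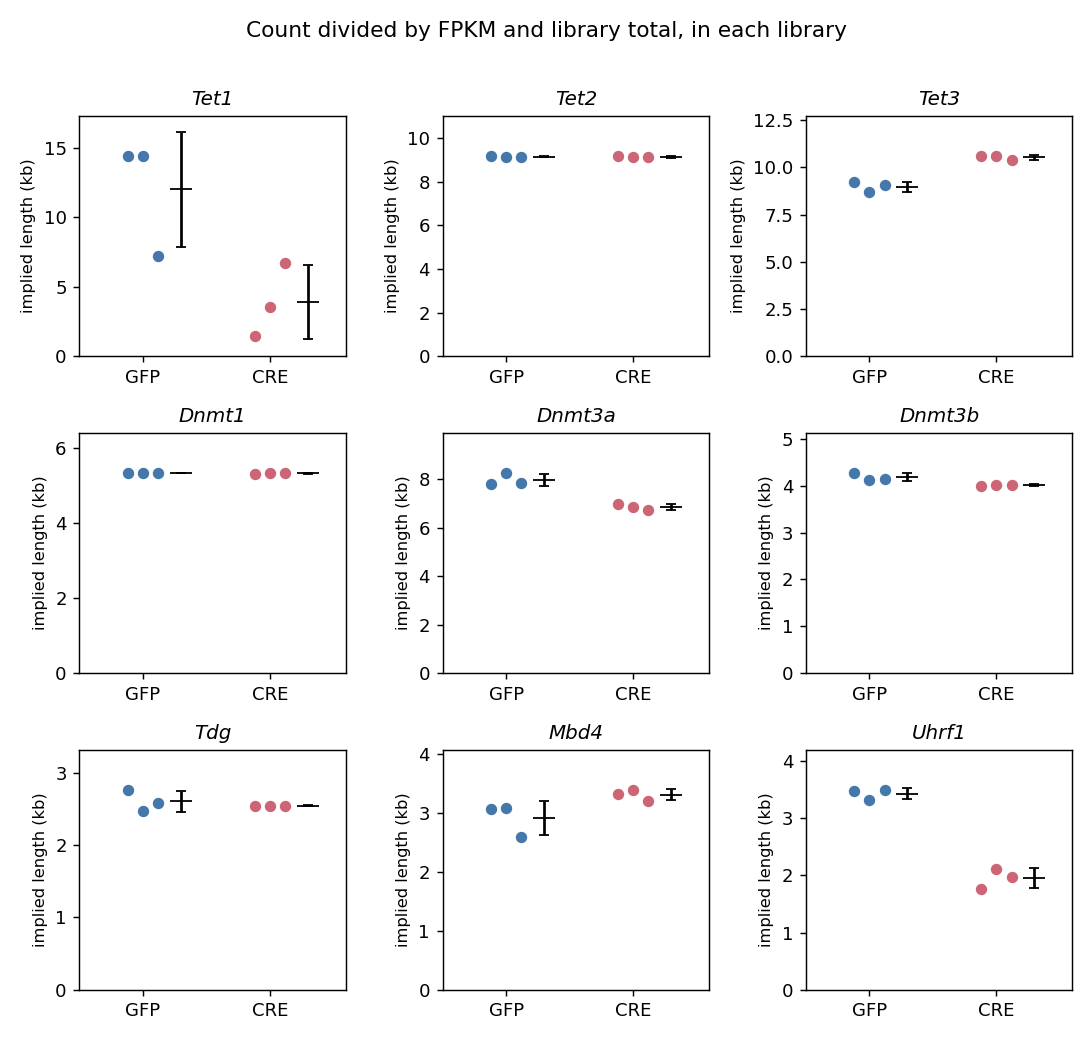
Transcript length in kb implied by the count, the FPKM and the total count of each library, 1 point a library, with mean ± SD (n = 3); each panel has its own axis starting at 0. GFP and CRE points coincide for *Tet2* and *Dnmt1*, and for *Uhrf1* the CRE points, at 1.76 to 2.11 kb, lie below the GFP points at 3.32 to 3.50 kb.

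Genes listed as readers of methylated CpG, or as relatives of such readers, moved in both directions. The list takes in *Mbd3*, *Mbd5* and *Mbd6* by family, whether or not their proteins bind methylated CpG. All 10 listed genes were tested, of which 2 were higher and 4 lower, with a median log2 fold change of -0.13. The share called, 60.0%, lay near the 51.2% of all genes, and the shares called for the lists that follow are read against the same value. *Mbd1*, a methyl-CpG-binding repressor, rose from 192, 183 and 180 CPM in GFP to 295, 303 and 353 CPM in CRE (log2 fold change 0.78, SE 0.07, edgeR adjusted p = 9.04e-06). *Zbtb33*, which encodes the reader Kaiso, rose by 0.30 on the log2 scale (adjusted p = 0.00135). *Mbd3*, a subunit of the NuRD complex, fell by 0.30 (adjusted p = 0.0007), and *Zbtb4*, a further zinc finger reader, fell by 0.27 (adjusted p = 0.00109). The calls of *Mbd3* on FPKM and of *Zbtb4* by library size alone were lost, and by library size alone the list held 4 higher and 1 lower gene, as it did on FPKM. *Mbd1* and *Zbtb33* were higher on all 3 scales, with 474 exon bases of *Zbtb33* shared with *Tmem255a* on the other strand.

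Of the genes that assist the methyltransferases, 11 of 12 were tested, with 2 higher, 3 lower (45.5% called) and a median of -0.03. *Dnmt3l*, the catalytically inactive partner of the de novo enzymes, gave 4.17, 3.78 and 4.36 CPM in GFP and 0.645, 0.886 and 1.32 CPM in CRE, a log2 fold change of -2.10 (SE 0.25, edgeR adjusted p = 7.36e-05). *Cdca7l*, a paralog of the HELLS partner CDCA7, fell by 2.21 (adjusted p = 2.56e-05), from 4.66 to 6.03 CPM in GFP to 0.806 to 1.32 CPM in CRE. Both point estimates were larger than that of any of the 9 genes, and both kept their call by library size alone and on FPKM. Exons of *Dnmt3l* share 67 bases with *Aire* on the other strand and those of *Cdca7l* share 642 with *Dnah11*. *Usp7*, a deubiquitinase of UHRF1 and DNMT1, rose by 0.13 (adjusted p = 0.0246), and *Pcna*, the replication clamp, by 0.16 (adjusted p = 0.0469). Neither was called by DESeq2, with adjusted p of 0.0618 and 0.0975, nor without GFP replicate 2 (0.0647 and 0.111), GFP replicate 3 (0.098 and 0.143) or CRE replicate 2 (0.062 and 0.17). The call was also lost for *Usp7* without CRE replicate 3 (0.0613) and for *Pcna* without CRE replicate 1 (0.0733) or without the filter on low counts (0.0628). By library size alone, and on FPKM, this list held 4 higher and 3 lower genes.

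The partners and cofactors of TET enzymes were all tested, with 5 of 11 higher, 3 lower (72.7% called, against 51.2% of all genes) and a median of 0.15. *Gadd45b*, which has been linked to active demethylation, rose from 24.9, 27.3 and 25.1 CPM to 45.9, 42.3 and 38.0 CPM (log2 fold change 0.70, SE 0.08, edgeR adjusted p = 4.55e-05), and its relative *Gadd45g* rose by 0.31 (adjusted p = 0.00626). *Wt1* and *Ebf1*, transcription factors known to bind TET2, fell. *Wt1* gave 3.53 to 3.66 CPM in GFP and 0.806 to 0.845 CPM in CRE, a log2 fold change of -2.10 (adjusted p = 2.02e-05), and *Ebf1* fell by 0.75 (adjusted p = 7.72e-06). These 4 genes kept their direction and call on all 3 scales. The list as a whole held 7 higher and 3 lower genes by library size alone, and 5 and 2 on FPKM.

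Base excision repair, which completes the removal of oxidised methylcytosine, showed 4 higher and 4 lower genes among 14 tested of 15 (57.1% called), with a median of -0.05. *Polb*, the gap-filling polymerase, rose from between 18.9 and 22.3 CPM to between 32.3 and 39.9 CPM (log2 fold change 0.80, edgeR adjusted p = 5.2e-05). *Apex1*, the abasic site nuclease, fell from between 48.0 and 51.6 CPM to between 30.2 and 31.6 CPM (log2 fold change -0.69, adjusted p = 5.25e-06). Its exons share 877 bases with *Pip4p1* on the other strand, and those of *Polb* share 45 with *Gm26909*. *Neil2*, a glycosylase, had 10 to 33 reads per library and a log2 fold change of -0.95 (adjusted p = 0.0326) that was not called by DESeq2 (adjusted p = 0.064) or by library size alone (adjusted p = 0.0592), nor without GFP replicate 2, GFP replicate 3, CRE replicate 2 or CRE replicate 3 (adjusted p between 0.0573 and 0.114). The list held 5 higher and 1 lower gene by library size alone, and 5 and 3 on FPKM.

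Of the genes that supply 2-oxoglutarate or clear metabolites competing with it, 14 of 14 were tested, with 3 higher, 3 lower (42.9% called) and a median of 0.01. *Idh1*, the cytosolic isocitrate dehydrogenase, fell from 220, 229 and 239 CPM to 136, 137 and 155 CPM (log2 fold change -0.68, edgeR adjusted p = 9.66e-06), and the mitochondrial *Idh2* fell by 0.44 (adjusted p = 0.0046). Both kept their call on the 3 scales, whereas the list as a whole held 7 higher and 2 lower genes by library size alone and on FPKM.

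Of 17 genes of the methionine cycle, which makes the methyl donor S-adenosylmethionine, 3 were higher and 7 lower (58.8% called), with a median of 0.03. *Shmt2*, the mitochondrial serine hydroxymethyltransferase, fell from 156, 126 and 140 CPM to 59.4, 54.8 and 59.3 CPM (log2 fold change -1.28, SE 0.07, edgeR adjusted p = 7.96e-07). Its cytosolic counterpart *Shmt1* had a log2 fold change of -0.61 (adjusted p = 0.0341) that was called neither by DESeq2 (adjusted p = 0.073) nor by library size alone (adjusted p = 0.0913), nor on log2(FPKM + 1) (limma adjusted p = 0.0528), nor without GFP replicate 1, GFP replicate 2, CRE replicate 1 or CRE replicate 2 (adjusted p between 0.0558 and 0.116). *Mat2a*, which makes S-adenosylmethionine in cells outside the liver, rose by 0.40 (adjusted p = 8.57e-05), and *Ahcyl2* rose by 0.68 (adjusted p = 4.55e-05). On the other strand, exons of *Mat2a* share 508 bases with *Particl*, those of *Shmt1* 184 with *Smcr8* and those of *Shmt2* 32 with *Ndufa4l2*. By library size alone 6 were higher and 5 lower, and on FPKM 5 and 4.

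Genes of DNA replication and proliferation were listed beside *Uhrf1* and *Dnmt1*, which peak in dividing cells. Of 16 tested, 2 were higher and 6 lower, with a median of -0.19, and the share called, 50%, was near the 51.2% of all genes. *Mcm2*, a subunit of the replicative helicase, fell from between 25.7 and 28.9 CPM to between 13.9 and 17.2 CPM (log2 fold change -0.77, edgeR adjusted p = 6.54e-05), and the licensing factor *Cdc6* fell by 0.95 (adjusted p = 0.0129) with 18 to 55 reads per library, a call lost without GFP replicate 2 (adjusted p = 0.0554) or CRE replicate 1 (0.0534). *E2f1* rose by 0.20 (adjusted p = 0.033), a call that was lost with DESeq2 (adjusted p = 0.142), without the filter on low counts (0.0584), with the replicate block (0.0503) and without any 1 of the 6 libraries (adjusted p between 0.0512 and 0.0863). Their part in the result for *Uhrf1* was not tested. By library size alone, and on FPKM, the list held 3 higher and 5 lower genes.

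Germline genes known to be silenced by promoter methylation were looked at as a possible readout, but most of them were too low for a further fall to be seen. Of 13 listed, 4 had enough counts to be tested, 0 were higher and 1 was lower (25% called), and the list summed to between 5.28 and 7.01 CPM in GFP and between 4.33 and 5.37 CPM in CRE. The lower gene was *Brdt* (log2 fold change -0.53, edgeR adjusted p = 0.0454), with 32 to 51 reads per library, and it was called neither by DESeq2 (adjusted p = 0.144) nor by library size alone (adjusted p = 0.135), nor on log2(FPKM + 1) (limma adjusted p = 0.179), nor without the filter on low counts (0.0601), nor without any 1 library other than GFP replicate 1 (adjusted p between 0.0671 and 0.13). *Tex101* was at 0 in all libraries.

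**Figure D5:**
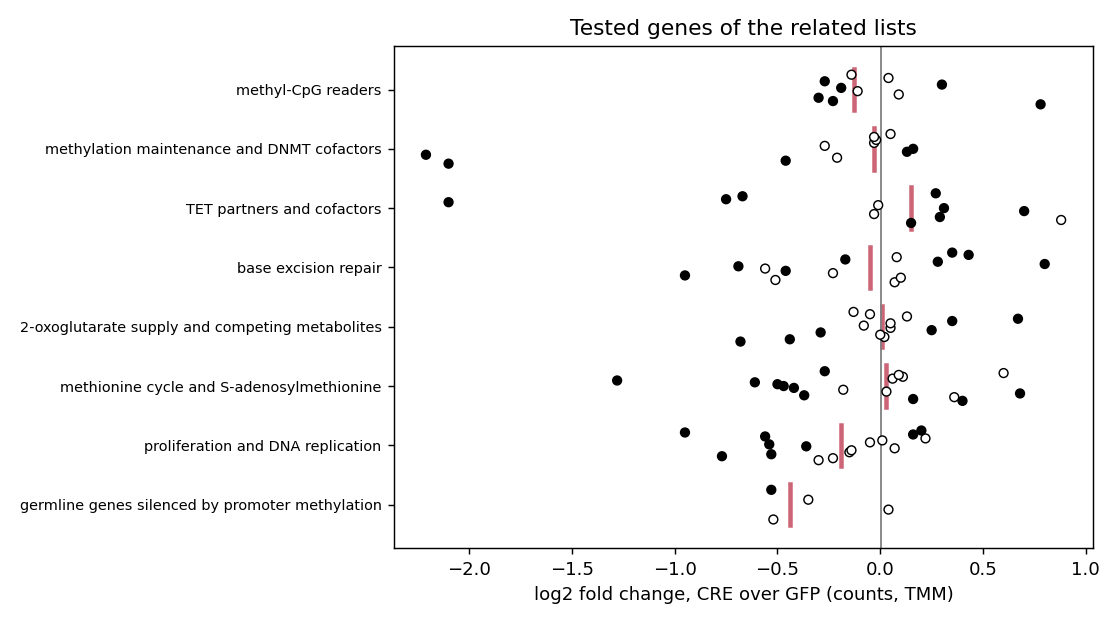
Log2 fold change (CRE over GFP, counts scaled by TMM) of each tested gene of the related lists: filled dots had an edgeR adjusted p under 0.05, open dots did not, and the red line is the list's median. Medians lie between -0.44 and 0.15, and *Cdca7l*, *Dnmt3l* and *Wt1* lie below -2.

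The genes whose values over the 6 libraries lay nearest to those of *Tet3* were *Insig1*, *Sqle*, *Hspg2*, *Vars* and *Lsp1*, out of 8807 genes that averaged 10 CPM or more. Nearness was the root mean square difference of centred log2 CPM, which was 0.037, 0.040, 0.049, 0.055 and 0.059 for the 5 genes. *Insig1* and *Sqle* belong to the control and synthesis of sterols, *Hspg2* encodes perlecan of the basement membrane, *Vars* a tRNA synthetase, and *Lsp1* an actin-binding protein. Their log2 fold changes lay between -0.76 and -0.72, beside -0.72 for *Tet3*. Because the genes were picked by nearness over the same libraries, this closeness follows from the selection and is no separate result.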

How the data were processed

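RNA-seq was performed on 6 libraries, grouped by their titles into GFP and CRE (3 each). Per the study's methods the authors aligned reads to GRCm38 with HISAT2, counted them with HTSeq-count and obtained FPKM with Cufflinks. RNA extraction and library kits differ between the labels and the methods, and the strand setting of the counting is not given in the sources used here. The authors deposited raw counts per gene, FPKM values per library, their mean FPKM of each group, a log2 fold change, a p-value and a false discovery rate. The means and the log2, p-value and FDR columns deposited by the authors were not used.

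Counts were tested in R 4.3.3 with edgeR 4.0.16: filterByExpr (minimum count 10, minimum total 15), TMM scaling and the two-sided quasi-likelihood test, with Benjamini-Hochberg adjustment over 12862 genes. Each standard error was obtained as |log2 fold change| / √F. Values on log2(FPKM + 1) were tested with limma 3.58.1. Ratios and shares had an exact permutation test. Total counts, given in the report, set the counting precision. DESeq2 1.42.0, other size factors and filters, a replicate block and leaving out each library were alternatives, and the main test was run on simulated data, where the share of false calls lay above the nominal level. Coordinates and transcripts came from GENCODE M21, and promoter windows from RefSeq. The related genes named were up to 4 in each list, the 2 most raised and 2 most lowered among those with an adjusted p under 0.05 and groups without overlap, and the 5 genes nearest to *Tet3*. A few genes that met this rule are not reported here. The genes and lists were chosen with earlier results of these data known.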

Additional observations from a re-analysis of the deposited data

Results flagged for a closer look

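The transcript length implied by count, FPKM and library total lies outside the main comparison. It did not overlap between the GFP and CRE libraries for 6 of the 9 genes, against 14.4% of 12819 genes. The CRE to GFP ratio of the mean length was 0.568 for *Uhrf1*, 0.326 for *Tet1*, 0.859 for *Dnmt3a*, 0.96 for *Dnmt3b*, 1.17 for *Tet3* and 1.14 for *Mbd4*. The ratios of *Uhrf1*, *Tet1*, *Dnmt3a*, *Tet3* and *Mbd4* lay outside the 5th to 95th percentile of all genes (0.93 to 1.08), and that of *Dnmt3b* lay within it. The lengths of *Tet1* rest on 12 to 48 reads per library, and the highest CRE value, 6.74 kb, lay just under the lowest GFP value, 7.24 kb. The cause was not tested.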

How the results depend on the processing

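*Tet3* was lower in CRE and past the threshold under every alternative run, with log2 fold changes between -0.78 and -0.62 when 1 library was left out. By library size alone all genes split into 5529 higher and 2083 lower (72.6% higher) and on log2(FPKM + 1) into 4976 and 1916 (72.2%), against 3277 and 3306 (49.8%) on TMM. Direction was reversed by library size alone for *Dnmt1* (0.03), *Dnmt3a* (0.02) and *Mbd4* (0.08), on log2(FPKM + 1) for *Tet1* (0.22), *Dnmt1* (0.03), *Dnmt3a* (0.20) and *Uhrf1* (0.26), and without CRE replicate 2 for *Mbd4* (0.10), none of them past the threshold. For *Mbd4* the values without 1 library ran from -0.25 to 0.10. Of the 28 related genes that met the naming rule, 9 fell below the threshold in some fit and 0 reversed. The difference in the *Tet3* share of TET transcripts was -5.58 percentage points on counts per kb and -5.18 on counts, and that in the DNMT to TET ratio 0.677 and 0.458. These 2 differences lay between -13.7 and -9.25 and between 0.918 and 1.02 when 1 library was left out. The methyltransferase cofactors had 3 called genes in DESeq2 and 3 to 5 without 1 library (3 without GFP replicate 2, GFP replicate 3 or CRE replicate 2). Base excision repair had 4 to 7 (4 without GFP replicate 3, 5 without CRE replicate 3), proliferation 5 to 9 (5 without CRE replicate 1) and the germline list 0 to 1 (1 without GFP replicate 1). The germline list had 0 called genes by library size alone, without a filter beyond 1 count, in DESeq2 and on FPKM. The cause was not tested.

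Whether the replicate numbers pair the libraries is not given, and 3 libraries a group are too few to settle it. Deviations of same-numbered libraries correlated at 0.046, 0.18 and -0.0181, and those of differently numbered ones at -0.116 to 0.0713. Not every library correlated best with its own number. With the replicate block 6633 genes were called against 6583, *Tet3* was at -0.71, and the germline list had 0 called genes. The calls of *E2f1* (adjusted p = 0.0503) and *Brdt* (0.0666) were lost, and the proliferation list held 1 higher and 8 lower genes, base excision repair 3 and 4, and the methyltransferase cofactors 2 and 4.

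Depth limits *Tet1*, *Dnmt3b*, *Mbd4*, *Dnmt3l*, *Wt1*, *Neil2*, *Shmt1*, *Cdc6* and *Brdt*, with under 100 reads in every library. Of the 9 genes, *Tet3*, *Tet2* and *Uhrf1* were called in DESeq2 too, whereas library size alone called *Tet3*, *Uhrf1* and *Tdg*, log2(FPKM + 1) called *Tet3* and *Tdg*, and the 4 called without CRE replicate 3 included *Tet1*.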
